A study of Mus musculus with 24 samples.

Results

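The peroxide- and superoxide-removing enzymes examined here are 10 genes: the peroxiredoxins *Prdx1*, *Prdx2*, *Prdx3*, *Prdx4*, *Prdx5* and *Prdx6*, the glutathione peroxidases *Gpx1* and *Gpx4*, the catalase gene *Cat*, and *Sod2*, the superoxide dismutase of the mitochondrial matrix. They were taken by symbol from a table of 55414 genes. The members were selected on measured values, namely their levels in the resting libraries set against the hemoglobin transcripts *Hba-a1* and *Hbb-bs*, so those values are described below without a test. Of the 10 genes, 9 had enough counts to be tested among 10566 genes. RNA came from splenic Tconv CD4+ cells (CD4+ CD25-), isolated on magnetic columns from mice with a common C57BL/6J nuclear genome and either the C57BL/6J mitochondrial DNA (mtDNA-B6) or that of the NZB strain (mtDNA-NZB). Cells were profiled at rest or after activation for 72 h with beads that engage CD3 and CD28, the T cell receptor complex and its costimulatory receptor, in the presence of added IL-2 (interleukin 2), in 6 libraries per haplotype and state (24 in all). Most of the study's mice were males 2 to 3 months old, and the labels do not state the age, the sex or the animal behind each library, so p-values measure the spread between libraries. The genotype labelled NZB therefore marks the mitochondrial genome in a shared nuclear background and not the NZB strain itself.

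Mitochondrial respiration leaks electrons to oxygen, and the superoxide that forms in the matrix is turned into hydrogen peroxide by SOD2. Peroxiredoxins then reduce hydrogen peroxide with a reactive cysteine, which in most of them thioredoxin restores. Glutathione peroxidases reduce hydrogen and lipid peroxides with glutathione, and catalase splits hydrogen peroxide in the peroxisome. Activated T cells use low amounts of these oxidants as signals, whereas red cell precursors and phagocytes carry large amounts of several of the same enzymes, PRDX2 and GPX1 being abundant proteins of the red cell.

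The peroxiredoxins share a reactive cysteine, and *Gpx1* and *Gpx4* a selenocysteine. The coding bases around these residues are printed here to show how alike the genes within each family are and where they lie. *Cat* and *Sod2* belong to neither family and are not printed. For each peroxiredoxin the line gives the 24 coding bases that end with the codon of the peroxide-reacting cysteine (in capitals), and for each glutathione peroxidase the 24 coding bases around the TGA codon that is read as selenocysteine (in capitals), all 5′ to 3′ on the coding strand in the GRCm39 annotation. Every codon is exonic.
Prdx1 (exon 3, chr4:116548999-116549022, plus strand): cctcttgactttacttttgtgTGT
Prdx2 (exon 3, chr8:85697091-85697114, plus strand): ccactggacttcacttttgttTGC
Prdx3 (cysteine codon in exon 4, chr19:60858565-60859868, minus strand, interrupted by an intron): cctttggatttcacatttgtgTGT
Prdx4 (cysteine codon in exon 3, chrX:154115456-154117844, minus strand, interrupted by an intron): ccactggatttcacctttgtgTGT
Prdx5 (exon 2, chr19:6885356-6885379, minus strand): cctggggcatttacacctggcTGT
Prdx6 (exon 2, chr1:161074938-161074961, minus strand): ccacgggactttaccccagtgTGC
Gpx1 (exon 1, chr9:108216638-108216661, plus strand): gtcgcgtctctcTGAggcaccacg
Gpx4 (exon 3, chr10:79890559-79890582, plus strand): gtggcctcgcaaTGAggcaaaact
*Prdx1* to *Prdx4*, which encode the typical peroxiredoxins that pair as dimers, were alike at 16 of these 24 bases, and all 6 peroxiredoxins at 10. The closest pair was *Prdx3* and *Prdx4* (21 of 24 bases), and *Prdx2* and *Prdx5* were the least alike (12 of 24). *Gpx1* and *Gpx4* shared 16 of 24.

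Libraries held from 51409 to 6449395 UMI counts (median 3187195), each UMI standing for 1 captured molecule. The activation label held in every library, since *Il2ra*, the high-affinity interleukin 2 receptor chain, lay between 0 and 5.71 CPM at rest (CPM being UMI counts scaled to a library total of 1000000) and between 42.0 and 180 CPM after activation. All 8 T cell identity markers were detected in each group, with summed levels of 2490 to 3956 CPM at rest and 3106 to 4303 CPM after activation. The resting libraries also carried RNA of other spleen cells. The 8 monocyte and macrophage markers, led by *Lyz2*, summed to 423 to 2703 CPM at rest and 8.05 to 109 CPM after activation. The 8 markers of neutrophils and their precursors summed to 407 to 20320 CPM at rest and 7.43 to 178 CPM after activation. The 11 erythroid markers with a count (of 12 listed, *Ahsp* having none) summed to 254 to 7784 CPM at rest and to 29.4 to 301 CPM after activation, and the 8 B cell markers, led by *Ighm*, to 5745 to 17450 CPM at rest and 1112 to 6148 CPM after activation. The 2 CD8 T cell markers ran from 16.9 to 142 CPM at rest and from 82.0 to 534 CPM after activation. The 4 NK cell markers with a count (*Klra8* had none) ran likewise from 50.8 to 179 and from 77.6 to 505 CPM. The 5 platelet markers ran from 8.28 to 53.5 and from 18.0 to 505 CPM. In activated mtDNA-B6 replicate 1, the highest in both, *Nkg7* held 503 CPM of the NK cell sum and *Pf4* 434 CPM of the platelet sum. The 8 activation markers, led by *Gzmb*, ran from 379 to 556 and from 1286 to 2642 CPM. *C1qa* was at 0 in all activated libraries and *Ppbp* in all resting mtDNA-B6 libraries. In bulk RNA, fewer cells of a type and less RNA per cell cannot be told apart. Resting mtDNA-NZB replicate 2 held 51409 counts, where 1 UMI is worth 16.9 CPM. Resting mtDNA-NZB replicate 6 had the highest monocyte and neutrophil sums of all 24 libraries, and activated mtDNA-NZB replicate 6 was the deepest library, with the highest B cell and CD8 sums of its group. Results are therefore given over all 24 libraries and over the 21 without these 3, which are all mtDNA-NZB libraries. No mtDNA-B6 library was left out, although resting mtDNA-B6 replicate 1 had the highest erythroid sum (7784 CPM). Activated mtDNA-B6 replicate 1 had the highest B cell sum after activation (6148 CPM).

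*Prdx2*, a cytosolic peroxiredoxin, was higher in resting libraries with more globin RNA. The sum of *Hba-a1* and *Hbb-bs* spanned 118 to 4963 CPM in resting mtDNA-B6 libraries (median 922) and 56.0 to 2427 CPM in resting mtDNA-NZB libraries (median 130), and after activation it reached at most 108 CPM. In resting mtDNA-B6 replicates 1 to 6, *Prdx2* was at 301, 199, 224, 316, 361 and 203 CPM, and in resting mtDNA-NZB replicates 1 to 6 at 162, 135, 166, 159, 149 and 309 CPM. The 5 mtDNA-NZB libraries with globin sums up to 220 CPM lay below every mtDNA-B6 library in *Prdx2*. Replicate 6 of mtDNA-NZB, with 2427 CPM of globin, lay among the high mtDNA-B6 libraries. The order was not the same at like globin levels. Resting mtDNA-B6 replicate 6 had less globin (118 CPM) than mtDNA-NZB replicates 5 and 1 (159 and 220 CPM). Its *Prdx2* was higher (203 CPM against 149 and 162 CPM), and so were its summed erythroid markers (644 CPM against 310 and 429 CPM). Its monocyte and neutrophil sums (2233 and 7434 CPM) were also above those of both libraries. Over the 12 resting libraries *Prdx2* and globin RNA had a Spearman rho of 0.762 and a Pearson r of 0.839 on the log2 scale. Within haplotypes (n = 6 each) rho was 0.543 in mtDNA-B6 and 0.371 in mtDNA-NZB, where r was 0.623 and 0.900. Without the 2 libraries farthest from the median in globin, resting mtDNA-B6 replicate 1 and mtDNA-NZB replicate 6, rho was 0.721 (n = 10), and with resting mtDNA-NZB replicates 2 and 6 set aside it was 0.745 (n = 10). These are descriptions of libraries that also share their dissection and other marker RNA, and the part of erythroid RNA in any haplotype difference was not tested.

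*Gpx4*, which reduces lipid hydroperoxides in membranes, followed globin RNA more closely than any other member by rho over the 12 libraries (0.909, r = 0.902). Its rho was 0.771 in each haplotype alone and 0.855 without the 2 farthest libraries. Levels of *Gpx4* ran only from 119 to 198 CPM at rest. Of the 60-base windows in its last 1000 transcript bases, 66.4% also occur in the lncRNA *Gm63662*, which is not among the counted genes. The pseudogene *Gpx4-ps2* (2057 UMI counts in all libraries, against 12148 for *Gpx4*) shares 41.8%, so counts of *Gpx4* may be divided with copies. The globin genes share such windows too, *Hba-a1* 81.0% with *Hba-a2* and *Hbb-bs* 61.7% with *Hbb-bt*. *Prdx4*, the peroxiredoxin of the endoplasmic reticulum, placed the 12 resting libraries in exactly the order that *Prdx2* did, so its rho against globin was also 0.762 (r = 0.678). *Gpx1*, the main cytosolic glutathione peroxidase, had the same rho of 0.762 (r = 0.778), but within resting mtDNA-B6 cells its rho was 0.2. *Sod2* came next (0.552, with 0.657 in mtDNA-B6 and 0.371 in mtDNA-NZB). *Prdx5* had 0.503 over the 12 libraries, but −0.257 in mtDNA-B6 and 0.371 in mtDNA-NZB. *Prdx3*, the peroxiredoxin of the mitochondrial matrix, had 0.224 over the 12 libraries and values below 0 in each haplotype alone (−0.2 and −0.314). *Prdx6*, which also has a phospholipase activity, had −0.0420 over the 12 libraries, −0.257 in mtDNA-B6 and 0.257 in mtDNA-NZB. The −0.105 of *Cat* likewise joined opposite signs, 0.314 in mtDNA-B6 and −0.714 in mtDNA-NZB, and it was 0.309 with mtDNA-NZB replicates 2 and 6 set aside.

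**Figure D1:**
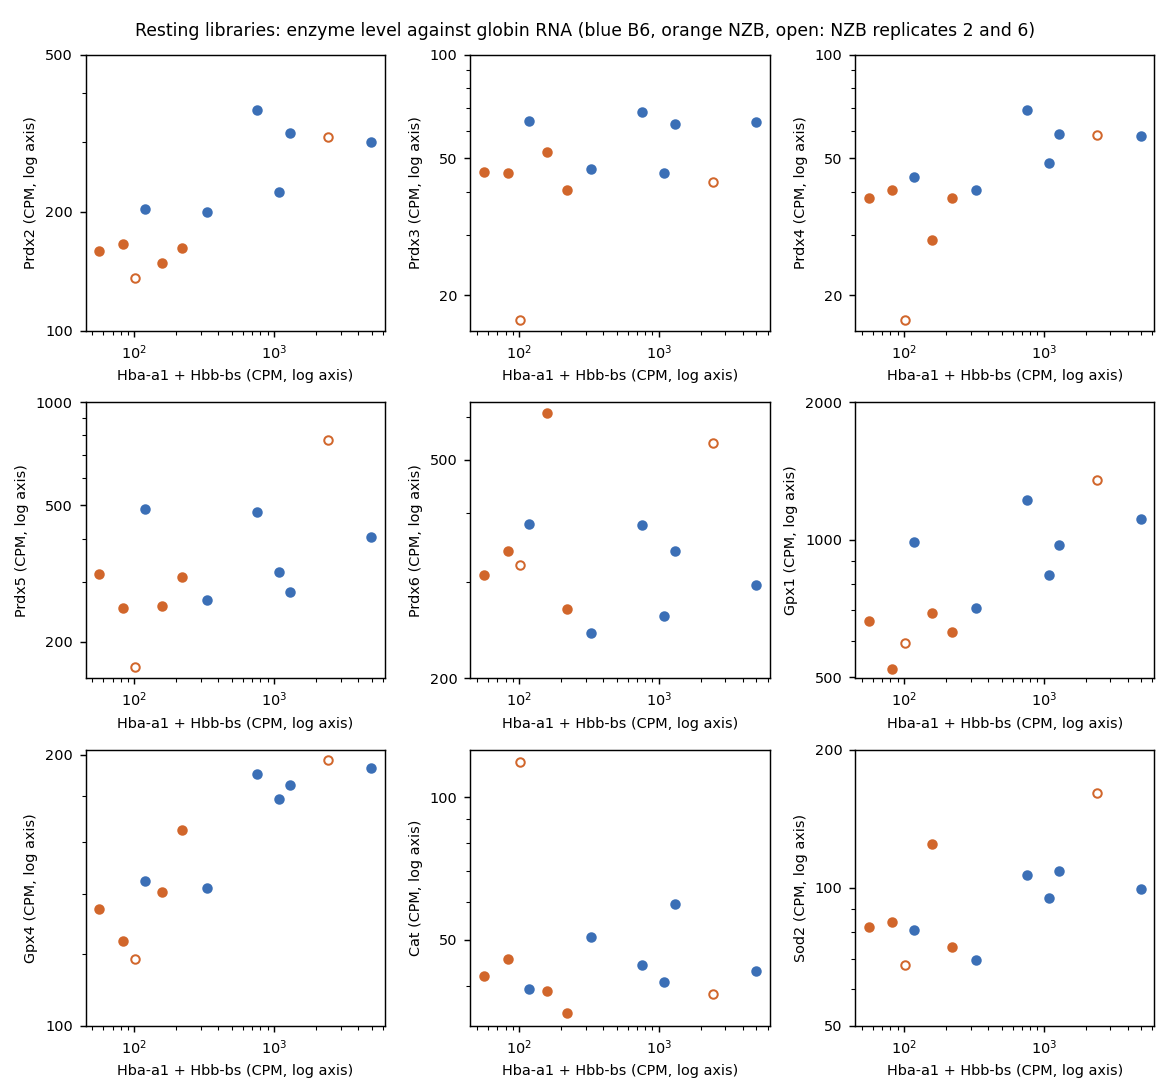
Level of each of 9 enzymes (CPM, log axis) against the summed *Hba-a1* and *Hbb-bs* level (CPM, log axis) in the 12 resting libraries, 1 point per library, blue for mtDNA-B6 and orange for mtDNA-NZB, open for mtDNA-NZB replicates 2 and 6. *Prdx2* and *Gpx4* climb from left to right (rho 0.762 and 0.909), whereas *Prdx6* and *Cat* do not (rho −0.0420 and −0.105).

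*Prdx5*, a peroxiredoxin of mitochondria, peroxisomes and cytosol, stood closest to another kind of marker RNA. Its resting level had a rho of 0.986 (r = 0.925) against the summed monocyte and macrophage markers over 12 libraries and 0.976 without mtDNA-NZB replicates 2 and 6. The libraries ranked lowest and highest by *Prdx5*, mtDNA-NZB replicate 2 (169 CPM, from 10 UMI counts) and replicate 6 (777 CPM), were also the lowest and highest by that sum (423 and 2703 CPM). In these libraries *Lyz2* alone held 373 and 2498 CPM of the sum. Against the neutrophil and precursor markers the rho of *Prdx5* was 0.678 over 12 libraries. *Gpx1* had a rho of 0.839 against the monocyte list and of 0.839 against the erythroid list, and *Prdx2* of 0.671 and 0.839. The marker lists themselves move together in these libraries, since mtDNA-NZB replicate 6 was high in erythroid, monocyte and neutrophil RNA at once, and their separate parts in the enzymes' levels were not tested. Against the T cell identity markers the rho of *Prdx2*, *Gpx1* and *Gpx4* was −0.385, −0.427 and −0.329 over 12 libraries, and −0.745, −0.697 and −0.661 without mtDNA-NZB replicates 2 and 6.

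**Figure D2:**
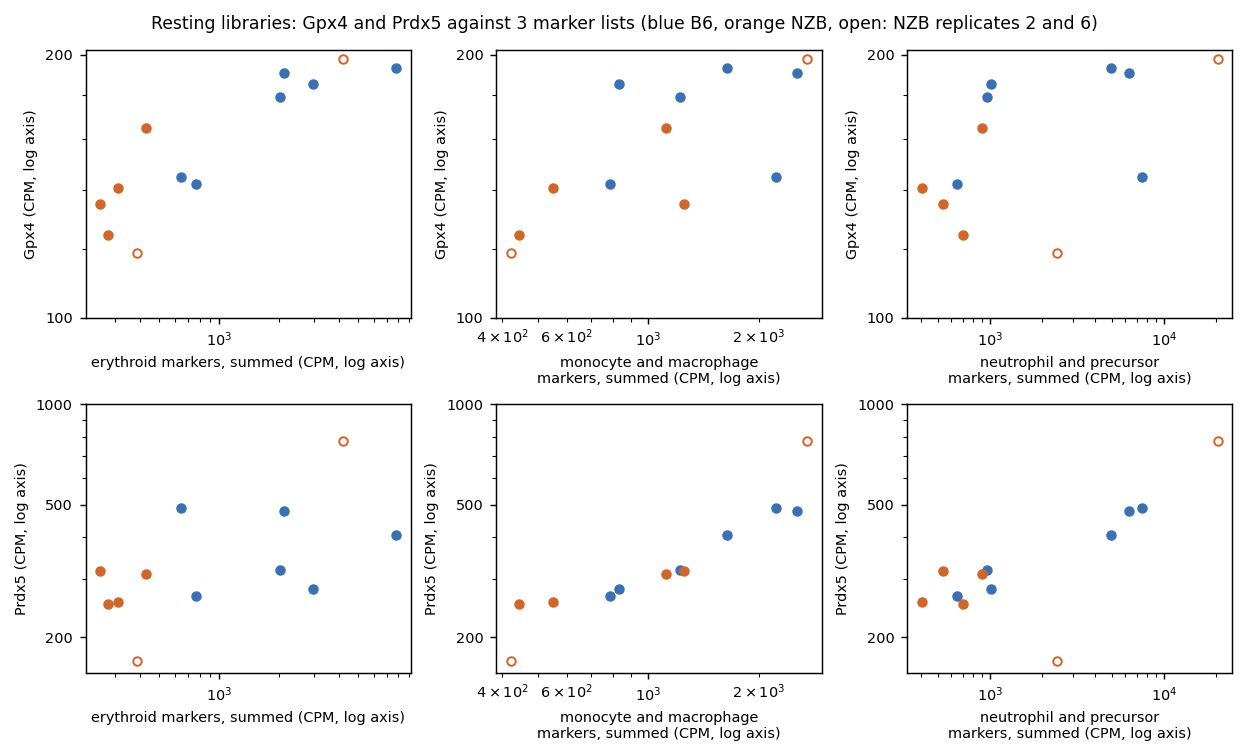
*Gpx4* (top) and *Prdx5* (bottom) in CPM (log axis) against the summed CPM (log axis) of erythroid, monocyte and macrophage, and neutrophil and precursor markers in the 12 resting libraries, 1 point each, blue for mtDNA-B6, orange for mtDNA-NZB, open for mtDNA-NZB replicates 2 and 6. *Gpx4* is ordered most by the erythroid list (rho 0.909) and *Prdx5* most by the monocyte list (rho 0.986). The monocyte and macrophage sum is mostly *Lyz2*.

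Between haplotypes at rest, values of the members are a description, since the rule used them. The log2 difference (mtDNA-NZB minus mtDNA-B6) over 24 libraries was −0.53 for *Prdx2* (SE 0.176), −0.40 for *Prdx3* (SE 0.143) and *Prdx4* (SE 0.222), −0.38 for *Gpx1* (SE 0.175), −0.20 for *Gpx4*, −0.14 for *Cat*, −0.04 for *Prdx5*, 0.14 for *Sod2* and 0.35 for *Prdx6* (SE 0.161). None of the 9 passed an adjusted p of 0.05 with edgeR's quasi-likelihood test, where 2.76% of all genes did. An unadjusted p under 0.05 was found for 4 of the 9, and for 2196 of all 10566 genes tested. With DESeq2 it was found for 3 members and for 2200 of 25030 genes, and no member was called. Over the 21 libraries the difference was −0.75 for *Prdx2* (SE 0.152) and −0.63 for *Gpx1* (SE 0.135), and these 2 members were among the genes called lower in mtDNA-NZB (3.88% of genes). The other members then gave −0.54 for *Prdx4*, −0.40 for *Prdx5*, −0.35 for *Prdx3*, −0.29 for *Gpx4*, −0.19 for *Cat* and 0.27 for *Prdx6*, and *Sod2* turned to −0.04. Without 1 library at a time, *Prdx5* ran from −0.45 to 0.05 and *Sod2* from −0.06 to 0.24, so neither had a fixed sign. Leaving out resting mtDNA-NZB replicate 6 alone gave −0.77 for *Prdx2* and −0.65 for *Gpx1*. Over the same 21 libraries *Hba-a1* differed by −3.53 and *Hbb-bs* by −3.46, against −1.03 and −1.48 over 24. Replicate 6 was the resting mtDNA-NZB library with the most globin RNA. Nothing about the members is read from these counts.

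On activation, mtDNA-B6 cells lowered 4 of the 9 enzymes tested and raised 1. *Prdx6*, *Gpx1*, *Prdx5* and *Cat* fell and *Prdx4* rose, while over all genes 24.5% fell and 22.4% rose. In mtDNA-NZB cells, 3 members rose (*Prdx2*, *Prdx3* and *Prdx4*, where 25.2% of genes rose) and 3 fell (*Prdx5*, *Prdx6* and *Cat*, where 28.4% fell). The median log2 fold change of the 9 members was −0.18 in mtDNA-B6 and −0.22 in mtDNA-NZB, beside −0.03 and −0.06 over all genes tested. Over the 21 libraries the mtDNA-B6 calls were the same 5 genes (23.8% of genes rose and 26.6% fell), and in mtDNA-NZB *Prdx2*, *Prdx3* and *Prdx4* again rose (24.5%) whereas of the falls only *Prdx6* passed (28.7%). The fall of monocyte, neutrophil, erythroid and B cell RNA on activation, given above, went with every one of these changes. So did the shift of the CD8 T cell, NK cell and platelet sums, and the part of either in these changes was not tested. The resting side of every one of these changes holds the levels by which the members were chosen. Tests of the members on activation, here and below, are therefore a description of these libraries. In mtDNA-B6 the state also went with the library set, a grouping by reads per UMI: 5 of 6 activated libraries were in set 1 and 1 was in set 2, whereas 4 resting libraries were in set 2 and 2 in set 3.

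**Figure D3:**
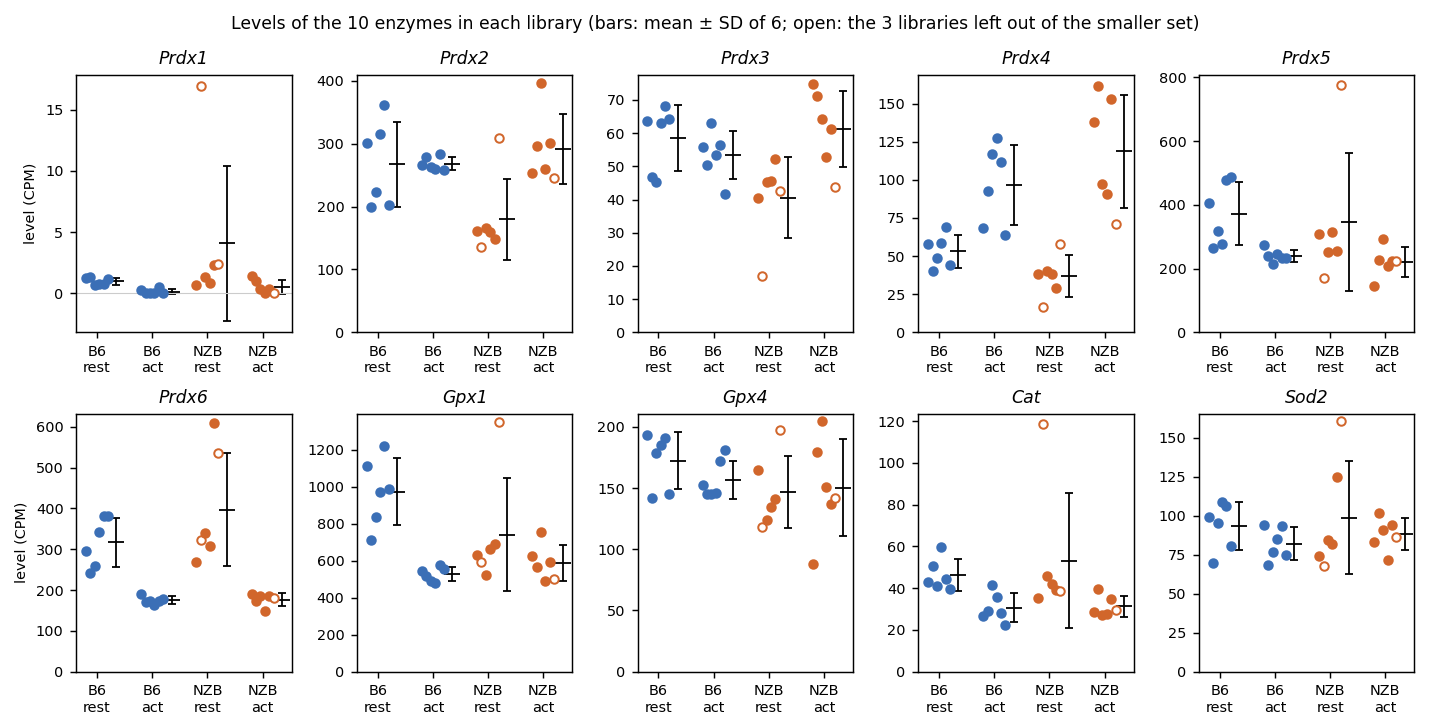
Level of each of the 10 enzymes (CPM, linear axis) in every library of the 4 groups (blue mtDNA-B6, orange mtDNA-NZB, rest and activated), with the mean ± SD of 6 libraries beside each group and open points for the 3 libraries left out of the smaller set. The activated libraries lie within a narrower range than the resting ones for *Prdx2* in mtDNA-B6, *Prdx5* and *Prdx6*, and *Prdx1* is at or under 2.41 CPM apart from a single UMI in the smallest library.

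Among the typical peroxiredoxins, *Prdx4* rose most. Its levels in resting mtDNA-B6 replicates 1 to 6 were 57.9, 40.4, 48.6, 58.7, 69.0 and 44.0 CPM and after activation 68.7, 92.4, 117, 127, 112 and 63.8 CPM, so that 4 of 6 activated libraries lay above all resting ones. In mtDNA-NZB they were 38.4, 16.9, 40.3, 38.3, 28.9 and 58.2 CPM at rest (the value of replicate 2 from 1 UMI) and 138, 162, 97.5, 90.6, 153 and 71.2 CPM after activation, and the groups did not overlap. The rise was 1.82-fold in mtDNA-B6 (log2 0.86, SE 0.207, adjusted p = 0.00131) and 2.92-fold in mtDNA-NZB (log2 1.55, SE 0.224, adjusted p = 2.88e-06), by edgeR with Benjamini-Hochberg adjustment as throughout. In either haplotype the increase was called whichever of the 24 libraries was left out.

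*Prdx2* passed the test in mtDNA-NZB cells and not in mtDNA-B6 cells, and the difference between the responses is given below. After activation it lay at 258 to 283 CPM in mtDNA-B6 (268 ± 10.2 CPM, SD, n = 6), within the resting range of 199 to 361 CPM (log2 fold change 0.00, SE 0.170, adjusted p = 0.994). Activated mtDNA-NZB replicates 1 to 6 were at 253, 296, 396, 259, 300 and 245 CPM, above all resting mtDNA-NZB libraries except replicate 6 (309 CPM). The rise in mtDNA-NZB was 1.58-fold (log2 0.66, SE 0.176, adjusted p = 0.00288), and over the 21 libraries 1.90-fold (log2 0.93, SE 0.158, adjusted p = 3.72e-05). With the description number as a replicate block this call was lost over 24 libraries (log2 0.57, adjusted p = 0.0589) and made over 21 (0.88, adjusted p = 0.00197). After activation the haplotypes overlapped, and the resting levels were those described above. The last 1000 bases of a *Prdx2* transcript overlap *Junb* on the opposite strand, an early activation gene that fell from 5588 ± 396 CPM to 389 ± 59.0 CPM in mtDNA-B6 (SD, n = 6) and from 5062 ± 1801 to 386 ± 64.2 CPM in mtDNA-NZB. Strand in the counting is not given in the sources used here, and whether *Junb* reads enter the *Prdx2* count was not tested.

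*Prdx3* likewise passed in mtDNA-NZB alone. It was at 45.2, 63.3 and 68.1 CPM (lowest, median, highest) in resting and 41.6, 54.6 and 63.1 CPM in activated mtDNA-B6 cells (log2 −0.13, SE 0.136, adjusted p = 0.447). In mtDNA-NZB it was at 16.9, 44.0 and 52.2 CPM at rest and at 43.8, 62.7 and 74.8 CPM after activation, where 5 of 6 activated libraries lay above all resting ones. That rise was 1.36-fold (log2 0.44, SE 0.145, adjusted p = 0.0124) and 1.40-fold over the 21 libraries (adjusted p = 0.00687). The replicate block gave 0.39 over 24 libraries, which did not pass (adjusted p = 0.0753), and 0.51 over 21 (adjusted p = 0.0315).

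*Prdx1* could not be followed. The 24 libraries held 50 UMI counts of it in all, 20 in resting and 3 in activated mtDNA-B6 cells and 21 and 6 in mtDNA-NZB cells, with at most 6 in a library. None of the 60-base windows in its last 1000 transcript bases occurs in another annotated transcript. It did not pass the filter on low counts. With no filter it gave log2 fold changes of −2.47 in mtDNA-B6 (adjusted p = 0.0129) and −2.06 in mtDNA-NZB (adjusted p = 0.0242), and DESeq2 called neither (adjusted p = 0.0545 and 0.0646). A count here covers the annotated 3′ window alone, so its size says little about the level of the whole transcript.

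The remaining peroxiredoxins fell. *Prdx6* had levels of 242, 318 and 382 CPM (lowest, median, highest) in resting and 164, 173 and 192 CPM in activated mtDNA-B6 cells, and of 268, 331 and 609 CPM in resting and 148, 182 and 190 CPM in activated mtDNA-NZB cells. Activated and resting libraries did not overlap in either haplotype. The fall was 1.81-fold in mtDNA-B6 (log2 −0.85, SE 0.160, adjusted p = 0.000104) and 2.28-fold in mtDNA-NZB (log2 −1.19, SE 0.164, adjusted p = 1.43e-06), and it was called with each library left out. At rest its rho was −0.0420 against globin RNA, 0.224 against the monocyte markers and 0.315 against the neutrophil markers. The part of RNA from other cells in the fall of *Prdx6* was not tested.

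*Prdx5* fell by 0.63 on the log2 scale in mtDNA-B6 (SE 0.232, adjusted p = 0.0277), from 266, 362 and 488 CPM to 215, 238 and 273 CPM (lowest, median, highest). In mtDNA-NZB it went from 169, 282 and 777 CPM to 147, 225 and 292 CPM (log2 −0.71, SE 0.237, adjusted p = 0.0141). The call in mtDNA-NZB rested on resting replicate 6, without which the log2 fold change was −0.30 (adjusted p = 0.136), and over the 21 libraries it was −0.35 (adjusted p = 0.0986). In mtDNA-B6 the call was lost without activated replicate 3, resting replicate 5 or resting replicate 6 (adjusted p = 0.054, 0.0675 and 0.109). With the library set as a term neither haplotype passed over 24 libraries (log2 −0.50, adjusted p = 0.19 in mtDNA-B6, and −0.56, adjusted p = 0.0559 in mtDNA-NZB).

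*Gpx1* fell in mtDNA-B6. Resting replicates 1 to 6 were at 1109, 710, 837, 973, 1219 and 990 CPM and activated replicates at 547, 515, 490, 478, 576 and 554 CPM, with no overlap. The fall was 1.85-fold (log2 −0.89, SE 0.175, adjusted p = 0.00018). In mtDNA-NZB, resting replicates were at 630, 593, 522, 665, 690 and 1348 CPM and activated replicates at 623, 567, 753, 491, 595 and 501 CPM, which overlap. There the log2 fold change was −0.35 (SE 0.176, adjusted p = 0.0965) over 24 libraries and −0.05 (SE 0.138, adjusted p = 0.795) over 21, and it passed in 2 of the 24 fits that leave out a library, without resting replicate 3 (adjusted p = 0.0396) and without activated replicate 3 (adjusted p = 0.0496). The annotated lncRNA *Gm57050* lies opposite the end of *Gpx1*.

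*Gpx4* and *Sod2* passed the test in neither haplotype. *Gpx4* was at 173 ± 23.0 and 157 ± 15.6 CPM in resting and activated mtDNA-B6 cells and at 147 ± 29.6 and 150 ± 39.9 CPM in mtDNA-NZB cells (mean ± SD, n = 6), with log2 fold changes of −0.14 (SE 0.145, adjusted p = 0.453) and 0.01 (SE 0.151, adjusted p = 0.954). The pseudogene *Gpx4-ps2* had −0.22 (adjusted p = 0.419) and 0.66 (adjusted p = 0.0598). *Sod2* was at 93.4 ± 15.4 and 82.2 ± 10.5 CPM in mtDNA-B6 and at 98.9 ± 36.2 and 88.2 ± 10.3 CPM in mtDNA-NZB (mean ± SD, n = 6), with log2 fold changes of −0.18 (SE 0.158, adjusted p = 0.35) and −0.22 (SE 0.164, adjusted p = 0.257).

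*Cat* fell 1.51-fold in mtDNA-B6 (log2 −0.59, SE 0.161, adjusted p = 0.00391), from 46.3 ± 7.55 to 30.6 ± 6.97 CPM (SD, n = 6), and 5 of 6 activated libraries lay below all resting ones. In mtDNA-NZB resting replicate 2 stood at 119 CPM from 7 UMI counts, and the other resting libraries at 35.1 to 45.7 CPM. Activated libraries ran from 27.2 to 39.8 CPM, and 5 of 6 lay below every resting one. That difference was −0.41 on the log2 scale (SE 0.173, adjusted p = 0.0459), and it was lost over the 21 libraries (−0.34, adjusted p = 0.0974) and in 15 of the 24 fits that leave out a library. Those fits lacked activated mtDNA-NZB replicate 1, 3, 4 or 6, resting mtDNA-NZB replicate 2, 3, 4 or 5, activated mtDNA-B6 replicate 2 or 5, or resting mtDNA-B6 replicate 1, 2, 3, 5 or 6, with log2 fold changes from −0.43 to −0.31 and adjusted p from 0.0501 to 0.0927. With the description number as a replicate block *Cat* was called in mtDNA-NZB over 24 libraries (−0.52, adjusted p = 0.00946) and over 21 (−0.59, adjusted p = 0.0087). With the library set as a term it was called over 24 (−0.46, adjusted p = 0.0411) and not over 21 (−0.36, adjusted p = 0.0854).

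**Figure D4:**
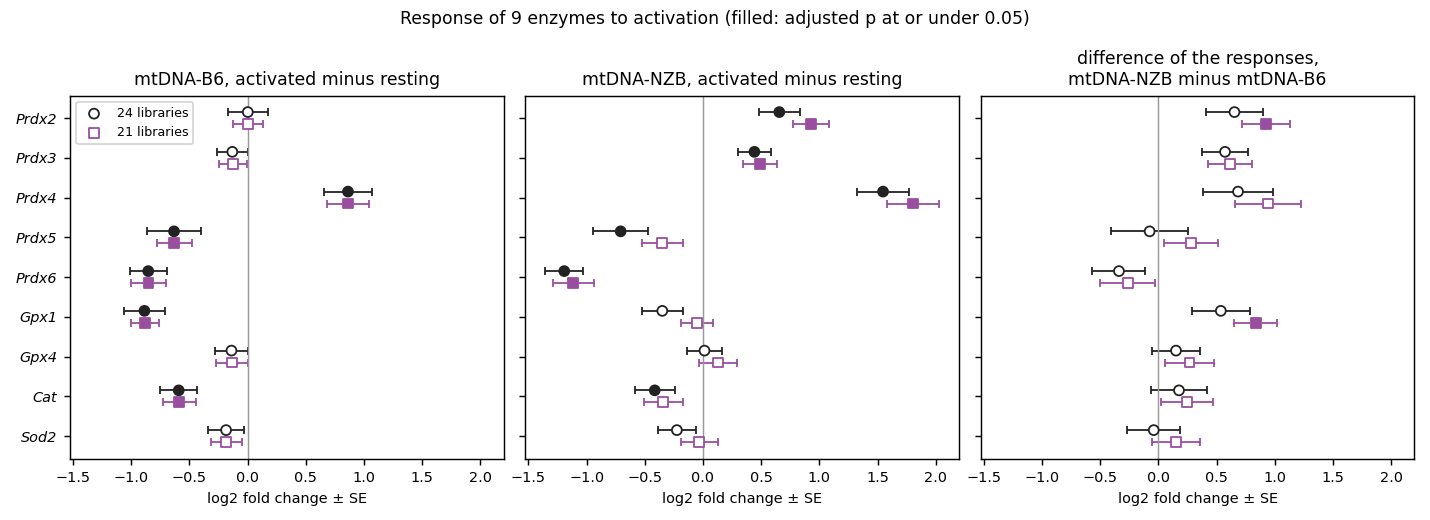
Log2 fold change on activation ± SE for 9 enzymes in mtDNA-B6 (left) and mtDNA-NZB (middle), and the difference of the responses (right), over 24 libraries (black circles) and 21 libraries (purple squares), filled where the adjusted p is at or under 0.05. *Prdx4* lies to the right of 0 and *Prdx6* to the left in both haplotypes, and only *Prdx2* and *Gpx1* over 21 libraries are filled on the right.

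The difference between the responses was fitted as the interaction term, which contains the resting levels that chose the members, so the values below describe them and support nothing. Over 24 libraries no member and no gene at all was called (0% of 10566 genes, with 1512 genes and 4 members, *Prdx2*, *Prdx3*, *Prdx4* and *Gpx1*, at an unadjusted p under 0.05, where DESeq2 called 1 gene and no member). The difference of the responses (mtDNA-NZB minus mtDNA-B6) was 0.65 for *Prdx2* (SE 0.244, adjusted p = 0.240), 0.57 for *Prdx3* (SE 0.199, adjusted p = 0.230), 0.68 for *Prdx4* (SE 0.302, adjusted p = 0.309) and 0.54 for *Gpx1* (SE 0.247, adjusted p = 0.328). Over the 21 libraries 1.04% of genes were called, and 0.878% with a higher response in mtDNA-NZB. *Prdx2* (0.92, SE 0.204) and *Gpx1* (0.84, SE 0.183) were among them. Neither was called when the label number was added to this fit as a replicate block or the library set as a term.

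In activated cells no member differed between haplotypes. The log2 differences (mtDNA-NZB minus mtDNA-B6) ran from −0.12 for *Prdx5* (SE 0.233) to 0.28 for *Prdx4* (SE 0.204), and edgeR called 0% of genes over 24 libraries (327 at an unadjusted p under 0.05, none of them a member, and 0 by DESeq2) and over 21 libraries (1068 at an unadjusted p under 0.05, *Prdx4* among them, and 7 by DESeq2, no member among them). The approximate 95% interval of the difference was −0.21 to 0.46 for *Prdx2*, −0.18 to 0.50 for *Gpx1* and −0.12 to 0.68 for *Prdx4*, and differences within those bounds are compatible with these libraries.

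Transcripts of the proteins that recharge peroxiredoxins were called in both directions. Of 12 genes for thioredoxins, their reductases and related partners, all tested, 4 rose and 3 fell in mtDNA-B6 and 5 rose and 3 fell in mtDNA-NZB (median log2 fold change 0.24 and 0.27), beside 22.4% up and 24.5% down over all genes in mtDNA-B6 and 25.2% and 28.4% in mtDNA-NZB, to which every list below compares. *Txn1*, the cytosolic thioredoxin, rose from 531 ± 122 to 1340 ± 193 CPM in mtDNA-B6 (log2 1.33, adjusted p = 1.79e-06) and from 421 ± 125 to 1350 ± 314 CPM in mtDNA-NZB (log2 1.65, adjusted p = 8.18e-08). *Txnrd3*, a thioredoxin glutathione reductase, fell in both haplotypes (log2 −1.44 and −1.63, in the order mtDNA-B6, mtDNA-NZB, as below) (adjusted p = 0.000724 and 0.000203). Of the other partners, *Glrx* and *Txnrd1* rose and *Txnip*, which binds and inhibits thioredoxin, fell in both, *Txnrd2* fell and *Sesn3* rose in mtDNA-B6, and *Txn2* and *Glrx2* of the mitochondria rose and *Sesn2* fell in mtDNA-NZB, names that were chosen after the values were seen.

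Among 11 tested genes of the NRF2 pathway, the transcription factor system that induces many antioxidant genes, 3 rose and 4 fell in mtDNA-B6 and 2 rose and 4 fell in mtDNA-NZB (median −0.27 and −0.34). *Mafk*, a small MAF partner of NRF2, fell (log2 −2.54 and −2.59, adjusted p = 3.1e-12 and 4.36e-12), from 82.5 ± 14.8 to 14.1 ± 2.05 CPM in mtDNA-B6. *Txnrd1*, the cytosolic thioredoxin reductase, rose by 0.76 and 0.81 (adjusted p = 0.00562 and 0.0044). Also called in both haplotypes, and named after the values were seen, were *Nfe2l2* (which encodes NRF2) and *Bach1*, which fell, and *Keap1*, which rose, whereas *Bach2* rose and *Hmox1* fell in mtDNA-B6 and *Mafg* fell in mtDNA-NZB. The core of the antioxidant response element that NRF2 binds was searched as TGACNNNGC on both strands in the RefSeq promoters (GRCm38.p6, 250 bases before to 50 after the start). It occurs in 12.4% of the 32851 promoters searched, which leave out a chromosome that holds no member. On the NRF2 list it occurs in 6 of 13 promoters (46.2%). Among the members it occurs in 1 of the 12 promoters listed for 9 of them (*Prdx6* has none listed, and *Gpx4* has 4). The match lies 129 bases before the start of *Prdx1*, on the opposite strand, and is shown with the core in capitals because *Prdx1* is the member with too few counts to test.
Prdx1 element: acgggggaTGACTCAGCgctttccc

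Of 9 tested genes for making and recycling glutathione, 1 rose and 1 fell in mtDNA-B6 and 2 rose and 1 fell in mtDNA-NZB (median −0.02 and 0.35). *Slc3a2*, the shared heavy chain of amino acid transporters, fell (log2 −1.24 and −1.58, adjusted p = 6.55e-07 and 1.75e-08), *Ggct* rose by 0.49 and 0.38 (adjusted p = 0.00203 and 0.0175), and *Gss*, glutathione synthetase, rose in mtDNA-NZB. Of 8 lipid peroxidation and ferroptosis genes, 1 rose in each haplotype and 3 and 4 fell (median −0.70 and −0.91). *Alox15*, a lipoxygenase found mainly in myeloid cells, fell (log2 −4.42 and −4.39, adjusted p = 2.11e-06 and 7e-06) together with the myeloid markers, and *Lpcat3*, which places polyunsaturated chains in phospholipids, rose by 0.43 and 0.56 (adjusted p = 0.000212 and 1.96e-05). The other falls were *Fth1* in both, *Dhodh* in mtDNA-B6, and *Gch1* and *Ncoa4* in mtDNA-NZB.

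Of the 9 other dismutases and glutathione peroxidases listed, 2 were tested. *Gpx7* of the endoplasmic reticulum passed in mtDNA-B6 (log2 1.39, adjusted p = 0.0167) and not in mtDNA-NZB (1.01, adjusted p = 0.0964). *Sod1* of the cytosol passed in mtDNA-NZB (0.41, adjusted p = 0.0404) and not in mtDNA-B6 (0.38, adjusted p = 0.0632). Over the 21 libraries *Sod1* passed in both (adjusted p = 0.0163 in mtDNA-B6 and 0.0106 in mtDNA-NZB). Of 12 peroxisome genes, which bring catalase to its organelle, none rose and 4 fell in mtDNA-B6 (*Pex5*, *Pex6*, *Pex10* and *Pex26*) and 3 in mtDNA-NZB (*Pex5* and *Pex26* among them), with medians of −0.08 and 0.01. *Pex5*, the import receptor that carries catalase, fell (log2 −0.83 and −1.19, adjusted p = 0.000399 and 8.9e-06). Of 8 genes for selenocysteine incorporation, on which the glutathione peroxidases depend, *Secisbp2* fell in mtDNA-B6 and *Scly* rose in mtDNA-NZB. Over all 59 pathway genes tested, 9 rose and 16 fell in mtDNA-B6 and 11 rose and 15 fell in mtDNA-NZB, shares near those over all genes given above, so nothing particular to these lists is read from the counts. None was called between haplotypes after activation. For a difference between the responses none was called over 24 libraries, and 2 of the 62 tested were over 21. A call in 1 haplotype alone on these lists is thus no evidence that the responses differ.

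**Figure D5:**
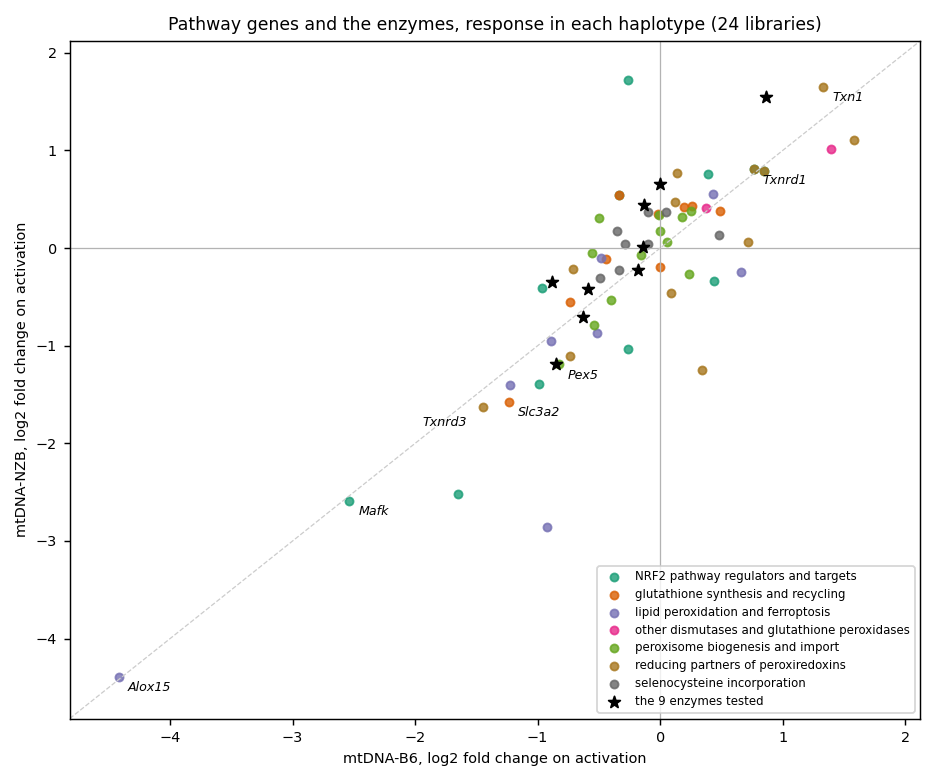
Log2 fold change on activation in mtDNA-NZB (vertical) against mtDNA-B6 (horizontal) for the tested genes of 7 pathway lists (coloured points, a gene on 2 lists drawn for each) and the 9 enzymes tested (black stars), over 24 libraries, with a dashed line of equal change. *Txn1* lies at 1.33 and 1.65, *Mafk* at −2.54 and −2.59, and the enzymes between −1.19 and 1.55.

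Over all 24 libraries, the genes whose log2 CPM was most like each member's (highest Pearson r among 9892 tested genes with a symbol) differed from member to member. They were *Tkt* (r = 0.906) and *Atp5if1* (0.883) for *Prdx2*, *Atic* (0.899) and *Chlsn* (0.898) for *Prdx3*, *Mcm2* (0.981) and *Vdac1* (0.975) for *Prdx4*, *Msrb1* (0.937) and *Septin5* (0.929) for *Prdx5*, and *Ssh2* (0.954) and *Slc38a2* (0.951) for *Prdx6*. For the others they were *Creg1* (0.927) for *Gpx1*, *Mgst3* (0.774) and *Tor1a* (0.751) for *Gpx4*, *Zfp830* (0.884) and *Zfp598* (0.865) for *Cat*, and *Dlst* (0.788) and *Acod1* (0.774) for *Sod2*. Over the 12 resting libraries alone, those most like *Prdx2* were *Blvrb* (0.965), *Ctse* (0.961), *Lsm2* (0.956), *Abcg4* (0.946) and *Hdgf* (0.944). Over the 21 libraries both genes stayed the same for *Prdx6* alone, 1 of 2 stayed for *Prdx2*, *Prdx4*, *Prdx5* and *Gpx1* (*Atp5if1*, *Mcm2*, *Msrb1* and *Creg1*), and none for *Prdx3* (now *Phf10* at 0.808 and *Hmgb3* at 0.807), *Gpx4*, *Cat* and *Sod2*. The libraries share depth, activation state and marker RNA, so these are rankings without a test.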

How the data were processed

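Splenic Tconv CD4+ RNA was profiled by bulk MARS-seq, a method that reads the 3′ end of polyadenylated RNA with unique molecular identifiers (UMI). According to the methods, the authors trimmed reads with cutadapt, mapped them with STAR to the last 1000 bases of GRCm39 transcripts, and counted genes with HTSeq. The authors deposited corrected UMI counts per gene with no scaling for depth. Another deposited table holds larger counts, read here as those before deduplication, and served as an alternative. Reads counted at the 3′ end can be divided between overlapping genes or copies. The methods give 60 ng of RNA per library and the labels 30 ng. In that second table, 1 column matched no sample and was not used. Genes outside the annotation used for coordinates held 0.0272% of UMI counts. Libraries of a group always differed beyond sampling noise (lowest chi-square per degree of freedom 2.77), so none was merged as a repeat deposit, which does not show that they came from separate animals.

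Counts were scaled by TMM and filtered by filterByExpr. The 4 groups entered the same model, which was fitted and tested by quasi-likelihood (edgeR 4.0.16, R 4.3.3), with Benjamini-Hochberg adjustment across every gene tested and calls at an adjusted p of 0.05 without a fold cut-off. SE is the log2 fold change divided by the square root of F. The fit was tested on simulated data. Correlations used log2(CPM + 0.5) in Python 3.11.15. Library sets are 3 groups made from reads per UMI at the widest gaps. The members, pathway lists and 9 marker lists were chosen with earlier results of these data known. Named genes are the 10 members, *Hba-a1*, *Hbb-bs* and *Il2ra*, the largest rise and fall called in both haplotypes on each pathway list, the 2 genes most like each member (5 for *Prdx2* at rest), and the most abundant or absent markers. Some genes that these rules select are not reported here. Alternatives were DESeq2 1.42.0, its size factors, hemoglobin genes left out, no filter or a minimum count of 30, the second table, 12 or 21 libraries, each library left out, replicate blocks, library set and a fold cut-off, with 3 combinations added after seeing the data.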

Additional observations from a re-analysis of the deposited data

Results flagged for a closer look

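Within groups of 6 libraries, a single library stood apart from the rest by Dixon's limit in 12 of the 48 gene and group combinations looked at, where chance gives about 5%. The largest cluster was resting mtDNA-NZB replicate 6, which was highest in *Prdx2* (309 CPM, next 166), *Prdx5* (777, next 316), *Gpx1* (1350, next 690), *Hba-a1* (593, next 38.4) and *Hbb-bs* (1830, next 181). The same library was highest of all 24 in monocyte and neutrophil markers, and the part of that RNA was not tested. Resting mtDNA-NZB replicate 2, with 51409 UMI counts, stood apart in *Prdx1* (16.9 CPM, from 1 UMI), in *Prdx3* (16.9, the lowest, also from 1 UMI) and in *Cat* (119 CPM, from 7 UMI counts, next 45.7). Resting mtDNA-B6 replicate 1 was highest in *Hba-a1* (887 CPM, next 224) and *Hbb-bs* (4080, next 1080), activated mtDNA-B6 replicate 1 in *Hbb-bs* (93.4, next 34.8), and activated mtDNA-NZB replicate 3 in *Prdx2* (396, next 300).

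Over the 21 libraries, the response to activation was higher in mtDNA-NZB than in mtDNA-B6 for *Prdx2* (difference 0.92 on the log2 scale) and *Gpx1* (0.84), both called by edgeR's interaction term where 0.878% of all genes were called in this direction. The term contains the resting levels that chose the members, so these values are a description. Neither was called over 24 libraries, nor over the 21 with the replicate block or with the library set as a term.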

How the results depend on the processing

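Counts of members changed on activation stayed within 1.5 times of the main count (5 in mtDNA-B6, 6 in mtDNA-NZB) under other scaling, filters, tools and library sets, though not always with the same genes. A log2 fold change of at least 1 left 0 members in mtDNA-B6 and 2 in mtDNA-NZB, and 8 and 13 pathway genes. Without 1 library at a time, member counts ran from 4 to 5 and from 5 to 6, pathway counts from 21 to 28 and from 23 to 29, resting haplotype differences from 0 to 2 members, activated differences and unequal responses were 0 throughout, and the rho of *Prdx2* against globin ran from 0.718 to 0.791. Counts that contain the resting levels that chose the members support nothing: over the 21 libraries 2 members were called at rest, where 3.88% of genes were lower in mtDNA-NZB (2 with DESeq2, 2 with the library set), and 2 responses, where 1.04% of genes were called (2 with DESeq2, 0 with the library set or the replicate block). Pathway genes changed in mtDNA-B6 numbered 16 with the library set over 24 and 16 over 21 libraries (25 in the main count), and in mtDNA-NZB 17 over the 12 libraries alone (26 in the main count). The depth of resting mtDNA-NZB replicate 2 limits every gene with few counts there.

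Numbers shared by the labels were not shown to pair the libraries. The methods say that isolated cells were split between rest and activation, but no source used here ties a number to an animal or preparation. Deviations of 9 same-numbered pairs correlated from −0.158 to 0.253, and 2 of 9 correlated best with their own number. With the description number as a replicate block 5 members changed in mtDNA-B6 and 4 in mtDNA-NZB, where *Prdx2* and *Prdx3* were lost, and with the title number 5 and 6, while unequal responses stayed at 0.

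Values that were not called changed sign, and the cause was not tested. Not all of them were near 0 in the main fit. *Gpx1* and *Sod2* in mtDNA-NZB stood there at −0.35 and −0.22, and the unequal response of *Prdx6* at −0.34. *Prdx2* in mtDNA-B6 gave −0.00 with median-of-ratios scaling, −0.03 with the minimum count of 30, −0.00 with DESeq2 and −0.01 over 12 libraries, *Prdx3* there 0.00 with the library set, and *Gpx4* there 0.04 and 0.03 (21 libraries) with it. In mtDNA-NZB *Gpx4* gave −0.03 with the minimum count of 30, −0.02 with the second table and −0.10 with the block, and over 21 libraries with the block *Gpx1* gave 0.03 and *Sod2* 0.02. The unequal response of *Prdx5* gave 0.02 with the second table, 0.00 with the title block and, over 21 libraries, 0.28 alone, 0.18 with the block, 0.24 with the library set and 0.29 with DESeq2. That of *Sod2* gave 0.01 with the title block and, over 21 libraries, 0.15, 0.20, 0.09 and 0.16 likewise, that of *Prdx6* 0.04 with the block over 21, and that of *Gpx4* −0.01 with the library set. Between activated haplotypes *Prdx6* gave −0.00 with median-of-ratios scaling and DESeq2, −0.02 unfiltered and over 12 libraries, and −0.06 and −0.07 (21 libraries) with the library set, *Gpx1* −0.02 with the library set and *Gpx4* 0.10 with the second table. Between resting haplotypes *Sod2* gave −0.04 over 21 libraries. Without single libraries, such values changed sign for *Prdx5* and *Sod2* between resting haplotypes (−0.45 to 0.05 and −0.06 to 0.24), *Prdx2* in mtDNA-B6 (−0.07 to 0.11), *Gpx4* in mtDNA-NZB (−0.09 to 0.12), *Prdx6*, *Gpx4* and *Cat* between activated haplotypes (−0.01 to 0.06, −0.15 to 0.06 and −0.05 to 0.14), and the unequal responses of *Prdx5* (−0.18 to 0.33) and *Sod2* (−0.13 to 0.16).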
